A study of Mus musculus with 9 samples.

Results

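The comparison described here set the 3 arrays of VSEL, very small embryonic-like stem cells from mouse bone marrow, against the 3 arrays of HSC (haematopoietic stem cells) and the 3 arrays of ESC (mouse embryonic stem cells, line ESC-D3), both taken as 1 reference. All 9 arrays of the series entered it. For each of 18193 genes the VSEL mean was set against the equal-weight mean of the HSC and ESC group means, and a gene was described as outside the range where every VSEL array lay above the highest, or below the lowest, of the 6 HSC and ESC arrays. A gene counted as clearly outside where the nearest arrays of both sides were at least 1 log2 unit apart. By this rule 142 genes were clearly above and 468 clearly below.

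C57BL/6 mice at 4 weeks of age gave the marrow for both sorted populations, VSEL and HSC. Both gates took Sca-1+ Lin– cells, and they differed in CD45, which VSEL lacked and HSC carried. ESC-D3 is an established line of strain 129S2/SvPas, kept on 0.1% gelatin with 10 ng/ml of leukaemia inhibitory factor, so the reference mixed 2 strains and both sorted and cultured cells. Every library came from 20 cells sorted into lysis buffer, with PCR-amplified cDNA hybridised to an Affymetrix mouse array. Whether libraries of 1 cell type had separate mice or cultures as their source is not in the labels. A p-value here therefore covers the spread among these libraries alone, and that spread may be technical.

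Bone marrow without CD45 is known to hold erythroblasts and stromal cells beside any rare stem cells. Erythroblasts make haem and haemoglobin under GATA1, which binds WGATAR sequences. Early B cell precursors cut and join immunoglobulin genes with the RAG recombinase, and they assemble a pre-B receptor from surrogate light chains. Neither programme is one that embryonic stem cells are known for.

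VSEL arrays 2 and 3 correlated at 0.990 over genes, against 0.768 to 0.951 in all other pairs within a group, and were averaged and counted as 1 library (VSEL 2+3), so n was 2 for VSEL, 3 for HSC and 3 for ESC. VSEL 1 and VSEL 2+3 correlated at 0.776, below the 0.922 to 0.951 within HSC and within ESC. The fit assumed 1 spread for all cell types, and that spread came mostly from HSC and ESC. The number of arrays limits the precision. VSEL arrays had brighter hybridisation controls, with means of 11.31 to 11.73 against 10.31 to 10.68. As the level of background the lower quartile of gene values was used, and it too was higher for VSEL (4.72 to 4.80, against 4.49 to 4.55 for HSC and ESC). For the Gapdh and beta-actin controls, 3′ minus 5′ signal ran from 0.709 to 1.07 on VSEL arrays. The HSC arrays gave 0.733 to 0.962 and the ESC arrays less, 0.340 to 0.446. The part of these array differences in the results below was not tested.

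The labels were first set against marker genes. Ptprc, which encodes CD45, read 3.59, 3.26 and 3.24 on VSEL arrays 1 to 3, 13.40, 13.68 and 13.54 on HSC arrays, and 3.17, 2.94 and 2.98 on ESC arrays, high in HSC alone. Pou5f1, the core pluripotency factor Oct4, read 10.21, 9.92 and 9.68 in VSEL, 3.27, 3.32 and 3.96 in HSC, and 12.94, 12.90 and 13.20 in ESC. Nanog, Sox2 and Zfp42 likewise lay between HSC and ESC in every VSEL array. The HSC arrays carried transcripts of cells that lineage depletion is meant to remove: the median level of 14 T and NK genes was 9.87 to 10.61 on the HSC arrays, against 4.80 to 5.15 on the ESC arrays. In libraries of many cells, more cells of a type and more RNA per cell cannot be told apart.

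Across all genes, 3173 of 18193 (17.4%) differed in VSEL from the mean of HSC and ESC at an adjusted p of 0.05, 1467 of them higher (8.06%) and 1706 lower (9.38%). Every adjusted p here is limma's, by Benjamini-Hochberg over all genes. The median difference over all genes was 0.12, so values are read against a small shift towards VSEL. Many called genes had VSEL inside the range: 177 called higher (0.973%) and 497 called lower (2.73%) were of this kind. In some of them VSEL was near 1 cell type and far from the other, and in others, such as Pou5f1, it lay between both. Lcn2 is of the former kind, with VSEL 13.65 to 14.74, HSC 13.93 to 13.98 and ESC 3.69 to 4.09. Ptprc, Fosb and Ms4a4b were the 3 largest lower differences inside the range, each near the ESC level in VSEL and far below HSC. Leaving out an ESC array took the count to 1841 to 2049 genes, and leaving out VSEL 1 took the genes clearly above to 779 and clearly below to 1060, with 1 VSEL library left that is assumed to vary like the other groups.

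The 2 sides of the range differed in size and spacing. All 3 VSEL arrays lay above all 6 reference arrays for 3226 genes (17.7%) and below them for 1547 (8.5%), but clearly above for 142 (0.781%) and clearly below for 468 (2.57%). Called and outside at any gap were 1290 genes above (7.09%) and 1209 below (6.65%), and called and clearly outside were 136 above (0.748%) and 462 below (2.54%). Against HSC alone 1457 genes were called higher (8.01%) and 1671 lower (9.18%), and against ESC alone 1161 (6.38%) and 1914 (10.5%). Both contrasts called 559 genes higher (3.07%) and 740 lower (4.07%), among them 119 of the genes clearly above and 436 of those clearly below. Clearly above genes had a median difference of 3.13 and a median VSEL level of 10.91, against 7.98 in HSC and 7.33 in ESC. Clearly below genes had a median difference of -2.43 and a median VSEL level of 6.85, against 9.34 and 8.99. A gap of 3 log2 units or more was seen for 15 genes above and 0 below, so the genes above stood farther out although they were fewer. Because the range rule and the test read the same values, the calls among these genes are a description. Brighter genes were more often below: of the 9096 genes above the median level, 1466 were below the range and 846 above. Among them 1566 were called lower and 468 higher. List shares are set against all genes unless stated, not against genes of like level. Slc43a1, at 1.0, was the gene nearest inside the threshold above, and Plscr3, at 0.99, the nearest outside it. Below, Nubp1 at -1.0 was just inside and Eno3 at -0.997 just outside.

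**Figure D1:**
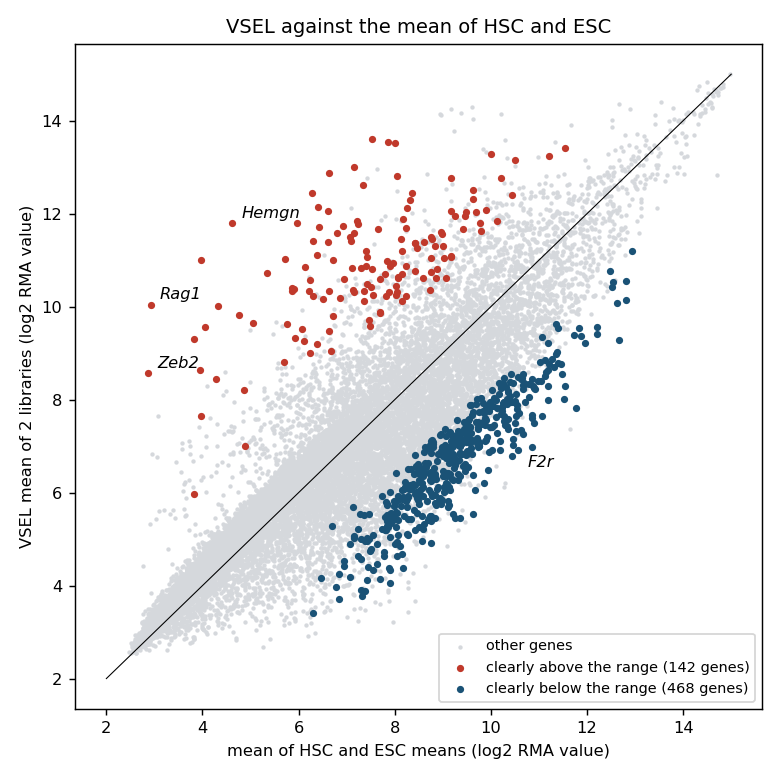
Each point is 1 of 18193 genes, with the mean of the HSC and ESC means on the x axis and the VSEL mean of 2 libraries on the y axis (log2 RMA values), and the line marks equality. The 142 red genes spread up to 7.18 log2 units above the line, while the 468 blue genes lie in a band that reaches 4.09 below it.

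The balance of the 2 sides moved with the scaling of the arrays. After quantile normalization of the gene values 237 genes were clearly above and 204 clearly below, and after cyclic loess 314 and 120. The genes chosen above stayed in place: of the 136 called and clearly above, 129 were still clearly above after quantile normalization and 135 after cyclic loess. Of the 462 below, 193 and 115 were, while 461 and 462 stayed outside the range on the same side. The share of called genes that were higher in VSEL was 46.2% as deposited, 59.4% after quantile normalization, 62.1% after cyclic loess and 75.9% with arrays centred on ribosomal proteins, which moved the median of all genes to 0.42.

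**Figure D2:**
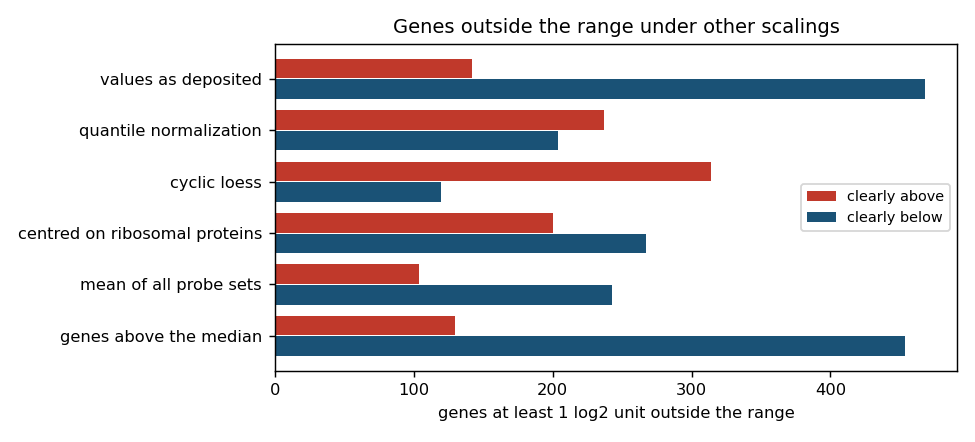
Bars count genes at least 1 log2 unit above (red) or below (blue) all HSC and ESC arrays, under 6 ways of handling the values. The deposited values give 142 above and 468 below, and cyclic loess gives 314 and 120.

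The largest gap above was that of 5430401H09Rik, a gene known here by its cDNA clone name. It read 11.45, 10.81 and 10.28 on VSEL arrays 1 to 3, 3.74, 4.15 and 4.22 on HSC arrays, and 3.98, 3.81 and 3.97 on ESC arrays. All 6 reference arrays were at background, and the VSEL arrays were 6.06 or more above them, with a difference of 7.02 ± 0.27 (SE, adjusted p = 0.000199). Rag1, the recombinase subunit that cuts antigen receptor genes, read 11.0, 9.49 and 8.68 in VSEL, 2.96, 2.98 and 2.99 in HSC, and 2.84, 3.09 and 2.70 in ESC. It too was at background in every reference array, the difference was 7.12 ± 0.46 (adjusted p = 0.000886), and VSEL 1 was the highest of the VSEL arrays. Differences against a background level can understate the true ratio.

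Zeb2 is a zinc finger repressor known for epithelial-mesenchymal transition and for roles in blood cell differentiation. Its brightest probe set read 7.45, 9.84 and 9.55 in VSEL, 2.75, 2.97 and 2.71 in HSC, and 2.96, 3.10 and 2.74 in ESC, a difference of 5.70 ± 0.53 (adjusted p = 0.00239). A second probe set separated the VSEL libraries, with 2.85 on VSEL 1, 10.26 and 9.72 on VSEL 2 and 3, and at most 4.44 on HSC and ESC arrays. The other 3 Zeb2 probe sets stayed at or under 5.16 on all arrays. Zeb2 was thus high in VSEL 2+3 by 2 probe sets and in VSEL 1 by 1 of them. Among the 13 measured genes of the Zeb, Snai and Twist list, Zeb2 was the 1 called higher and Zeb1, its paralogue, the 1 called lower, with 6.48, 6.74 and 6.23 in VSEL against 8.40 to 9.12 in HSC and 7.60 to 7.78 in ESC (-1.71 ± 0.20, adjusted p = 0.00525). The Zeb1 call was lost with the mean of its probe sets, with HSC and ESC as 1 group and with the 3′ to 5′ covariate. Snai1, Snai2, Twist1 and Twist2 were inside the range, and the list had a median difference of -0.19. Its shares called, 7.69% each way, were near the 8.06% higher and 9.38% lower of all genes.

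Abcb4, a phospholipid transporter best known from bile, was bright and even in VSEL, at 12.17, 11.88 and 12.03. It read 6.88, 6.5 and 7.59 in HSC and 6.11, 6.17 and 6.37 in ESC, a difference of 5.46 ± 0.29 (adjusted p = 0.000404). Ackr1, the Duffy chemokine-binding receptor of erythroid and endothelial cells, read 10.47, 10.34 and 10.32 in VSEL, 5.62, 5.84 and 5.60 in HSC, and 6.00, 5.99 and 6.16 in ESC. Its 3 VSEL arrays were nearly level, and it had the smallest adjusted p of the 12 genes with the largest gaps above (0.000146, difference 4.53 ± 0.13). Ypel4 was also even, with 10.01, 9.81 and 9.49 in VSEL and 4.47 to 4.92 on all 6 reference arrays (5.08 ± 0.17, adjusted p = 0.000188). Gng11, a G protein gamma subunit, differed by 4.71, Tifa, an adaptor of innate immune signalling, by 5.39, Slc22a4, the ergothioneine transporter, by 5.51, and Tspan33, a tetraspanin of erythroid and B cells, by 4.76. The gaps of these 12 genes ran from 3.25 to 6.06 and their differences from 4.53 to 7.18. For 10 of the 12 the array had a single probe set, so Zeb2 and Tspan33 alone could be read from others: a second Tspan33 probe set read 9.89, 10.54 and 10.37 in VSEL against at most 7.24 elsewhere, and 2 dimmer ones separated VSEL 1 (8.32 and 8.38) from VSEL 2 and 3.

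**Figure D3:**
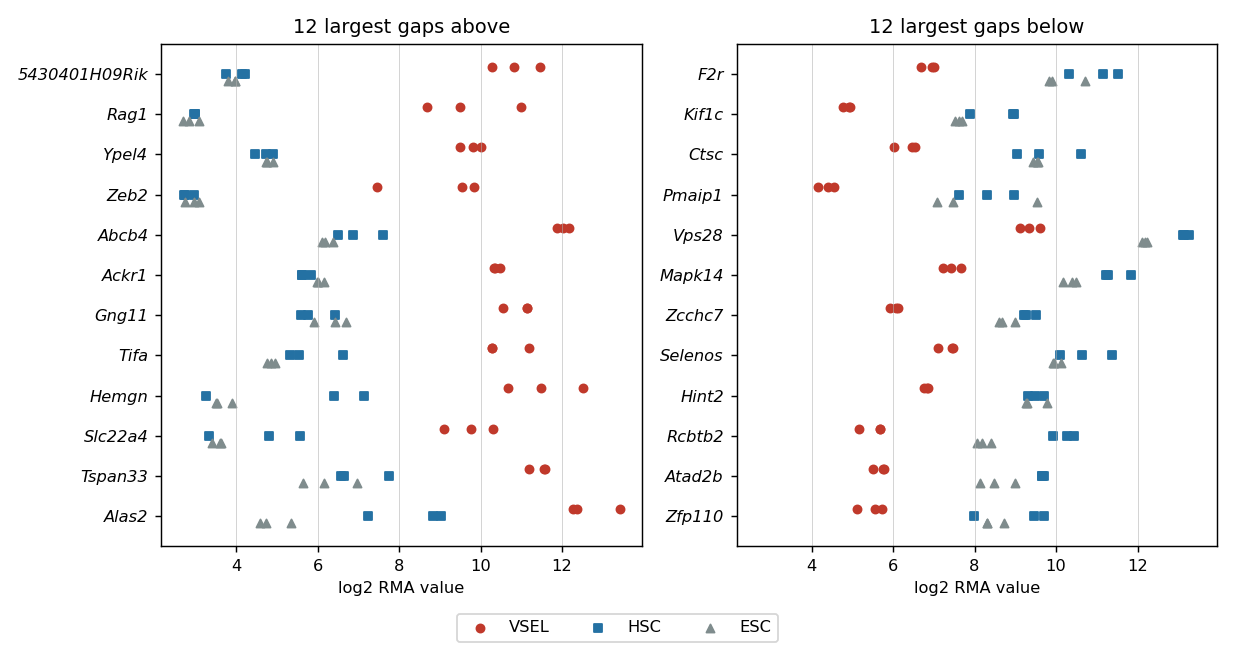
Log2 RMA values on each array for the 12 genes with the largest gaps above (left) and below (right), with VSEL as circles, HSC as squares and ESC as triangles. On the left all VSEL points lie at least 3.25 log2 units to the right of every HSC and ESC point, and on the right at least 2.25 to the left.

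Most genes of the erythroblast list lay above the range. Of 22 measured members, 18 were above the range in every VSEL array (81.8%, against 17.7% of all genes), 10 of them clearly. Called higher were 17 (77.3%, against 8.06% of all genes) and lower 0. The median difference was 2.65, against 0.12 over all genes. Hemgn, a nuclear protein of erythroid precursors, read 12.52, 11.47 and 10.67 in VSEL, 7.14, 3.26 and 6.40 in HSC, and 3.50, 3.89 and 3.53 in ESC. Its difference of 7.18 ± 1.01 (adjusted p = 0.00865) was the largest of all genes clearly above, though its HSC arrays were far apart, and the call was lost with the 3′ to 5′ covariate (adjusted p = 0.07). Alas2, the first and rate-limiting enzyme of erythroid haem synthesis, read 13.43, 12.28 and 12.38 in VSEL, 7.24, 8.82 and 9.03 in HSC, and 4.74, 4.59 and 5.35 in ESC (6.25 ± 0.56, adjusted p = 0.0021). Slc4a1, the band 3 anion exchanger of the red cell membrane, read 14.18, 13.13 and 12.94 in VSEL, 8.26, 8.56 and 10.12 in HSC, and 6.77, 5.37 and 6.03 in ESC (6.09 ± 0.63, adjusted p = 0.00337). Trim10, a ubiquitin ligase family protein of erythroid cells, read 12.88 in VSEL 1, 10.79 and 10.66 in VSEL 2 and 3, and 5.10 to 7.84 elsewhere (5.83 ± 0.82, adjusted p = 0.00856). All 4 were highest in VSEL 1.

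The members of the haem pathway and the red cell membrane were both among those above. Fech, which inserts iron into the porphyrin ring, and Slc25a37, the mitochondrial iron carrier, were clearly above. Ppox, Cpox and Urod, enzymes of the same pathway, were above and called higher. Hba-a1, the alpha globin gene, was above the range but not called (0.55). The 4 members inside the range were Alad, Rhag, Sptb and Tspo2, of which Rhag and Sptb were called higher. These genes, beyond the 4 with values above, were picked for mention after their values were seen. In each library taken alone, all 22 members lay above the 6 reference arrays in VSEL 1, 18 by 1 log2 unit or more, and 20 lay above in VSEL 2+3, 12 by that much. The list median was 12.56 in VSEL 1 and 10.90 in VSEL 2+3, with HSC arrays at 7.71 to 8.56 and ESC arrays at 6.24 to 6.47, so HSC stood between VSEL and ESC. The count called higher fell to 11 with HSC and ESC taken as 1 group and to 6 with the 3′ to 5′ covariate.

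Promoter windows are shown for 4 clearly above erythroblast-list genes, to set the group's members beside the core letters of the motif that erythroid GATA factors bind. They are RefSeq windows of 300 bases around the annotated start on GRCm38.p6, printed 5′ to 3′ on the gene's strand, and capitals mark GATAA or its reverse complement TTATC. Hemgn lies on the minus strand at chr4:46404134-46404433, Alas2 on the plus strand at chrX:150547167-150547466, Trim10 on the plus strand at chr17:36869324-36869623 and Epor, the erythropoietin receptor, on the minus strand at chr9:21963527-21963826.
Hemgn: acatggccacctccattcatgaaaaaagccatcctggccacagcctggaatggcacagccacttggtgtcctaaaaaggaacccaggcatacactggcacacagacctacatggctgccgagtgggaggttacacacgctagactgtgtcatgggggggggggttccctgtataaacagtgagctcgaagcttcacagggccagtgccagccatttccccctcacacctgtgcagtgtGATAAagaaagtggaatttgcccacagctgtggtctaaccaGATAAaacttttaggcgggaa
Alas2: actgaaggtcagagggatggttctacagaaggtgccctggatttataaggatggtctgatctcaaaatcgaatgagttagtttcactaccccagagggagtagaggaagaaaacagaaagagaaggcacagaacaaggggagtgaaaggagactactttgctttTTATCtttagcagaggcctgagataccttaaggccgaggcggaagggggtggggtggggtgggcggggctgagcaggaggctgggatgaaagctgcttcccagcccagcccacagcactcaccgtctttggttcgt
Trim10: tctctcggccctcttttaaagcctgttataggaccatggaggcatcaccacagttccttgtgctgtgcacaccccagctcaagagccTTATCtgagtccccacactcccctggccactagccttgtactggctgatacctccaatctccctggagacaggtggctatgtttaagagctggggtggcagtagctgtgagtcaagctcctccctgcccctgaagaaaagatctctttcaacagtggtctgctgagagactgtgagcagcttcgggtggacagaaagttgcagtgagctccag
Epor: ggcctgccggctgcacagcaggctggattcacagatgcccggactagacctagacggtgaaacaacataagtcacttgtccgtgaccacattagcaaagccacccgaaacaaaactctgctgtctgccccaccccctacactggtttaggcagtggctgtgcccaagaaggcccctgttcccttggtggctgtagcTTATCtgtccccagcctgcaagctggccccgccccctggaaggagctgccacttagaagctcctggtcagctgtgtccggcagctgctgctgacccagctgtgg
Hemgn held GATAA 2 times on the gene's strand, and each of the other 3 held it once on the opposite strand. Of the 10 list members clearly above, 6 had a window in the table and 6 of those windows held GATAA on either strand. Over all windows of measured genes the share was 19.3% (3473 of 18009), over the erythroblast list 52.6% (10 of 19), over genes clearly above 17.7% (29 of 164) and over genes clearly below 14.4% (68 of 473). The windows of the genes clearly above as a whole were thus near the general share. A match is a description of the letters, not of a bound site.

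Some regulators known to act with GATA1 were on the same side. Of 17 measured genes of erythroid and stem cell regulation, 6 were above the range (35.3%, against 17.7% of all genes), 2 of them clearly, and 11 were inside. Called higher were 7 (41.2%, against 8.06% of all genes) and lower 0, with a median difference of 1.90. Lyl1, a helix-loop-helix factor of blood progenitors, read 10.99, 12.52 and 12.62 in VSEL, 9.35, 9.18 and 7.70 in HSC, and 5.51, 5.36 and 6.34 in ESC (4.54 ± 0.61, adjusted p = 0.00757). Nfe2, a subunit of the factor that drives globin and platelet genes, read 9.91, 10.81 and 10.68 in VSEL, 8.77, 8.20 and 6.69 in HSC, and 4.88, 4.14 and 4.66 in ESC. Both were higher in VSEL 2+3 than in VSEL 1, unlike the erythroblast genes named above and unlike the list median. That median was 9.61 in VSEL 1 and 8.09 in VSEL 2+3, with HSC arrays at 8.30 to 8.45 and ESC arrays at 5.87 to 6.35. VSEL 1 was above the range for 12 of 17 members and below for 0. VSEL 2+3 was above for 7 and below for 2. Klf1, the erythroid Krüppel-like factor, read 14.30, 11.53 and 11.74 in VSEL, 9.62, 10.97 and 9.60 in HSC, and 5.55, 5.20 and 4.83 in ESC, and its difference from HSC alone was not called (2.90, adjusted p = 0.0581). Gata1, named after its values were seen, read 11.26 in VSEL 1 but 6.21 and 5.86 in VSEL 2 and 3, inside the 5.17 to 9.07 of the other arrays, and was not called. The count called higher was 1 with HSC and ESC as 1 group and 4 with the 3′ to 5′ covariate.

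The V(D)J recombination and pre-B list was the next most often above. Of 17 measured members, 8 were above the range (47.1%, against 17.7% of all genes), 4 of them clearly. Called higher were 8 (47.1%, against 8.06% of all genes) and lower 0, and the median difference was 1.79. Beside Rag1, the genes clearly above were Igll1 and Vpreb1, which encode parts of the pre-B receptor's surrogate light chain, and the related gene Vpreb3. Igll1 read 13.17, 11.68 and 11.76 in VSEL, 8.44, 6.69 and 5.53 in HSC, and 5.43, 5.60 and 5.97 in ESC (6.17 ± 0.76, adjusted p = 0.00595). Vpreb3 read 14.23, 12.65 and 12.96 in VSEL, 9.58, 9.95 and 9.19 in HSC, and 6.37, 6.07 and 6.87 in ESC (5.51 ± 0.43, adjusted p = 0.00147). Vpreb1, the partner of Igll1, read 11.27, 9.56 and 9.43 in VSEL, 6.65, 7.55 and 7.43 in HSC, and 4.18, 4.57 and 4.99 in ESC (4.49 ± 0.51, adjusted p = 0.00447). VSEL 1 was the highest for all 4 genes.

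The other members are named after their values were seen. Rag2, the partner of Rag1, was dim: it read 5.78, 6.32 and 6.30 in VSEL and 5.12 to 5.47 elsewhere (0.72, adjusted p = 0.0434). Cd24a and Ebf1, a factor of early B cells, were above by less than 0.1 and called higher, Ebf1 at background. Pax5, the B cell commitment factor, and Dntt, which adds bases at the joints, were inside the range and not called. Cd79b was called higher but not above in every VSEL array. Spib, an Ets factor of B cells and plasmacytoid dendritic cells, was called higher by 5.35 with VSEL inside the range, since HSC 1 read 12.03 and VSEL 2 read 11.93, and its call was lost without VSEL 1 (4.57, adjusted p = 0.0603). The list's count called higher was 5 without HSC 3, without ESC 2 or without ESC 3, and 3 with HSC and ESC as 1 group or with the covariate. Igll1 was not called when probe sets that can match several transcripts were left out, with a difference of 0.60. The Igll1 probe set then read was at most 4.97 on all arrays, near background.

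Neutrophil granule genes showed the opposite arrangement of libraries. Of 17 measured, 13 were called higher than the mean of HSC and ESC (76.5%, against 8.06% of all genes), with a median difference of 3.93. But 0 were outside the range, since HSC carried them too. S100a9, a calcium-binding protein abundant in neutrophils, read 13.42, 15.09 and 15.08 in VSEL, 14.29, 14.70 and 14.71 in HSC, and 3.91, 3.76 and 3.68 in ESC. Lcn2, the iron-scavenging granule protein lipocalin 2, read 13.65, 14.74 and 14.57 in VSEL, 13.93, 13.95 and 13.98 in HSC, and 4.09, 3.69 and 3.97 in ESC. VSEL 2+3 lay above all HSC arrays and VSEL 1 below them for both genes. Over the list, VSEL 2+3 was above the range for 17 of 17 members and VSEL 1 for 0, with 2 below. The list median was 11.53 in VSEL 1 and 13.57 in VSEL 2+3, with HSC arrays at 12.40 to 12.96 and ESC arrays at 4.58 to 4.91. With HSC and ESC as 1 group, a fit that counts the distance between them as spread, 0 members were called. Against HSC alone the differences were -0.31 for S100a9 (adjusted p = 0.65) and 0.20 for Lcn2 (adjusted p = 0.666).

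**Figure D4:**
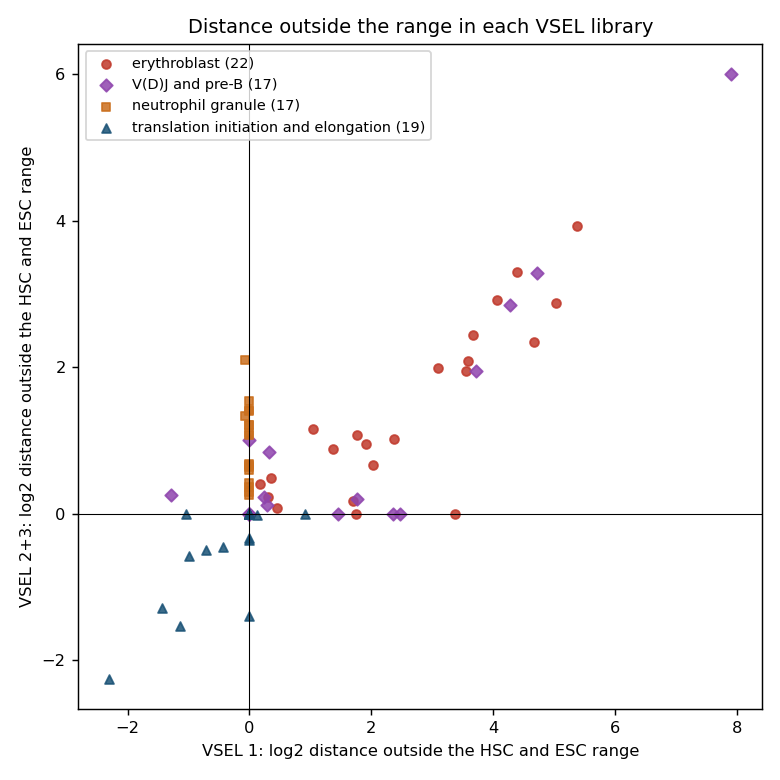
Each point is a list member, with its signed log2 distance outside the HSC and ESC range in VSEL 1 on the x axis and in VSEL 2+3 on the y axis, and 0 means inside the range. Erythroblast members (red) are above in both libraries, 20 of 22 in VSEL 2+3, while the 17 neutrophil members (orange) are above in VSEL 2+3 and never above in VSEL 1.

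Each VSEL library alone stood clearly outside for more genes than the 2 shared. VSEL 1 lay 1 log2 unit or more above the 6 reference arrays for 828 genes and below for 1290, and VSEL 2+3 for 832 and 1314. Both were above for 151 genes and both below for 557, while 95 were above in VSEL 1 and below in VSEL 2+3 and 115 the reverse. The 2 libraries were read against the same HSC and ESC arrays, so a count shared by both is not independent of them. Among the 142 genes clearly above, VSEL 1 exceeded VSEL 2+3 by over 1 log2 unit for 34, the reverse held for 12, and 96 were within 1. Among the 468 clearly below, 423 were within 1. By the same rule with the groups exchanged, 636 genes were clearly above in HSC and 356 clearly below, and 738 and 251 in ESC, so on the deposited values VSEL had the fewest clearly above and the most clearly below. The exchanged groups were not run under other scalings.

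Some proliferation genes were above the range. Of 32 measured DNA replication genes, 8 were called higher (25%, against 8.06% of all genes) and 1 lower, 8 were above (25%, against 17.7%) and 1 below, and the median difference was 0.51. Cdc45, a subunit of the replicative helicase, read 10.69, 10.67 and 10.79 in VSEL, 7.39, 7.60 and 7.83 in HSC, and 8.48, 8.61 and 8.97 in ESC (2.56 ± 0.19, adjusted p = 0.00121). The order for Cdc45 was VSEL above ESC above HSC with no overlap. The list's median level was 10.73 in VSEL, 8.81 in HSC and 10.85 in ESC, and 23 of 32 members were inside the range. By library the median was 11.13 in VSEL 1 and 10.80 in VSEL 2+3, with ESC arrays at 10.80 to 10.90. Prim1, a primase subunit, read 11.76, 12.28 and 12.20 in VSEL against 10.21 to 10.90 in ESC and 8.57 to 9.09 in HSC, and Rrm1, a ribonucleotide reductase subunit, was called higher by 1.90. The Rrm1 value fell to 0.45 (adjusted p = 0.119) with the mean of its probe sets, since a second one read 7.74, 8.12 and 7.92 in VSEL, 7.73, 5.83 and 6.86 in HSC, and 10.32, 10.26 and 10.06 in ESC. Pold1, the catalytic subunit of polymerase delta, was called higher by 1.38, but the direction turned to -0.62 when probe sets that can match several transcripts were left out. Its call was also lost without VSEL 1 (1.54, adjusted p = 0.0657) and without any 1 ESC array (1.31 to 1.42, adjusted p 0.0596 to 0.0626). With the mean of all probe sets 3 genes of the list were called higher, and without VSEL 1 13 were above the range and 3 below.

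Mitotic genes gave 5 higher and 2 lower of 30 measured, with 4 above (13.3%, under the 17.7% of all genes), 1 below and a median difference of 0.89. Of the 9096 genes above the median level, 846 were above the range. The share called higher was 16.7%, against 8.06% of all genes. Mki67, the Ki-67 proliferation antigen, read 12.37, 11.72 and 11.65 in VSEL, 8.02, 9.57 and 9.21 in HSC, and 9.70, 10.26 and 10.07 in ESC (2.56 ± 0.44, adjusted p = 0.0148). Kif11, the spindle kinesin Eg5, read 8.95, 9.36 and 9.54 in VSEL, 5.83, 4.86 and 5.36 in HSC, and 7.26, 7.11 and 7.88 in ESC (2.82 ± 0.33, adjusted p = 0.00478). VSEL was the highest of the 3 cell types on these probe sets, but not over the list. The list's median level was 10.60 in VSEL, 8.33 in HSC and 10.82 in ESC, and 25 of 30 members were inside the range. A second Kif11 probe set split the VSEL libraries, with 4.57, 10.59 and 10.38 in VSEL, 6.90, 4.37 and 3.76 in HSC, and 7.70, 7.29 and 7.29 in ESC. The Kif11 call was lost with the mean of its probe sets (1.43, adjusted p = 0.15) and with HSC and ESC as 1 group (adjusted p = 0.0816), and Mki67 was not called without VSEL 1 (2.21, adjusted p = 0.0595). Ndc80, a kinetochore protein, was called lower by 1.63, with VSEL at 5.30 to 6.05 and HSC 1 at 6.06, and lost its call without VSEL 1, VSEL 3, HSC 1, HSC 3 or any ESC array (adjusted p 0.0535 to 0.136). The count called higher was 8 without HSC 2, 10 after cyclic loess and 1 with the covariate. Of 27 homologous recombination and Fanconi genes, Nbn, a subunit of the break-sensing MRN complex, was called higher (2.37, adjusted p = 0.0155). Mre11a, of the same complex, was below the range (gap -0.85) but not called (-2.65), and Rad50 was inside the range (-0.29). Atr, the replication stress kinase, and Fancl were called lower. These shares, 3.7% higher and 7.41% lower, were under the 8.06% and 9.38% of all genes. Atr was no longer called in 13 of its 21 alternative settings, among them every removal of a library but VSEL 2 and HSC 2 (-2.36 to -3.02, adjusted p 0.0585 to 0.175).

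Lists of other marrow cell types differed in how often they were called. Of 18 mesenchymal and osteoblast genes, Cxcl12, Lum and Ibsp were called higher (16.7%, against 8.06% of all genes) and Thy1 lower (5.56%, under the 9.38% of all genes). Cxcl12, the stromal chemokine that holds stem cells in the marrow, read 8.10, 7.60 and 7.29 in VSEL, 5.62, 4.64 and 4.91 in HSC, and 6.98, 4.89 and 4.97 in ESC (2.44 ± 0.62, adjusted p = 0.0432). Lum and Ibsp read at most 5.37 in VSEL, near background, and Col1a1, Col1a2 and Pdgfra were not called. Leaving out VSEL 1, any HSC array, ESC 2 or ESC 3 left 0 of the 3 called higher, with Cxcl12 at 2.11 to 2.58 (adjusted p 0.0625 to 0.152), and leaving out ESC 1 left 1. Of 16 endothelial genes 0 were called, and Cldn5, a tight junction protein with the largest difference of them, was split between libraries, with 5.43 in VSEL 1, 11.32 and 11.39 in VSEL 2 and 3, and 4.82 to 5.29 elsewhere. In the T and NK list 7 of 14 were called lower (50%, against 9.38% of all genes) and 0 higher, with 0 outside the range: Cd3g read 4.18, 4.21 and 4.55 in VSEL, 12.55, 12.91 and 13.01 in HSC, and 4.20, 3.81 and 3.82 in ESC. In the pan-leukocyte list 4 of 18 were called higher (22.2%, against 8.06% of all genes) and 5 lower (27.8%, against 9.38%), none outside the range. The list median was 5.41 in VSEL 1, within the 5.11 to 5.53 of the ESC arrays. It was 11.33 in VSEL 2+3, nearer to the HSC arrays at 12.84 to 13.26. Rac2, at 12.99 to 13.85 in VSEL, and Ptprc, at 3.24 to 3.59, did not show this split on their brightest probe sets. Of 18 HSC and progenitor genes 1 was called higher (5.56%, under the 8.06% of all genes) and 4 lower (22.2%, against 9.38% of all genes). Hoxa9 was the 1 called higher (0.78, adjusted p = 0.0231), with a difference of 0.70 without VSEL 1. Kit, the stem cell factor receptor, was below the range and called lower: it read 7.36, 6.74 and 6.58 in VSEL, 8.96, 7.57 and 8.48 in HSC, and 10.29, 9.47 and 10.37 in ESC (-2.18 ± 0.44, adjusted p = 0.0238). Its call was lost without ESC 1 (-2.12, adjusted p = 0.0542) or ESC 3 (-2.10, adjusted p = 0.0501).

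Pluripotency genes mostly lay between the reference's 2 cell types. Of 29 measured, 9 were called higher (31.0%, against 8.06% of all genes) and 3 lower (10.3%, near the 9.38% of all genes). But Nr5a2 alone was outside the range (3.45% above, under the 17.7% of all genes), by 0.31, with VSEL at 7.05 to 7.51. This rested on the probe set chosen, since its difference was near 0 without probe sets that can match several transcripts. The list's median difference was 0.41, and 5 were called higher without HSC 1 or without ESC 1. Nr5a2 lost its call in 11 of 21 alternative settings, among them the removal of HSC 1, HSC 3 or any ESC array (0.67 to 0.70, adjusted p 0.0589 to 0.0688).

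**Figure D5:**
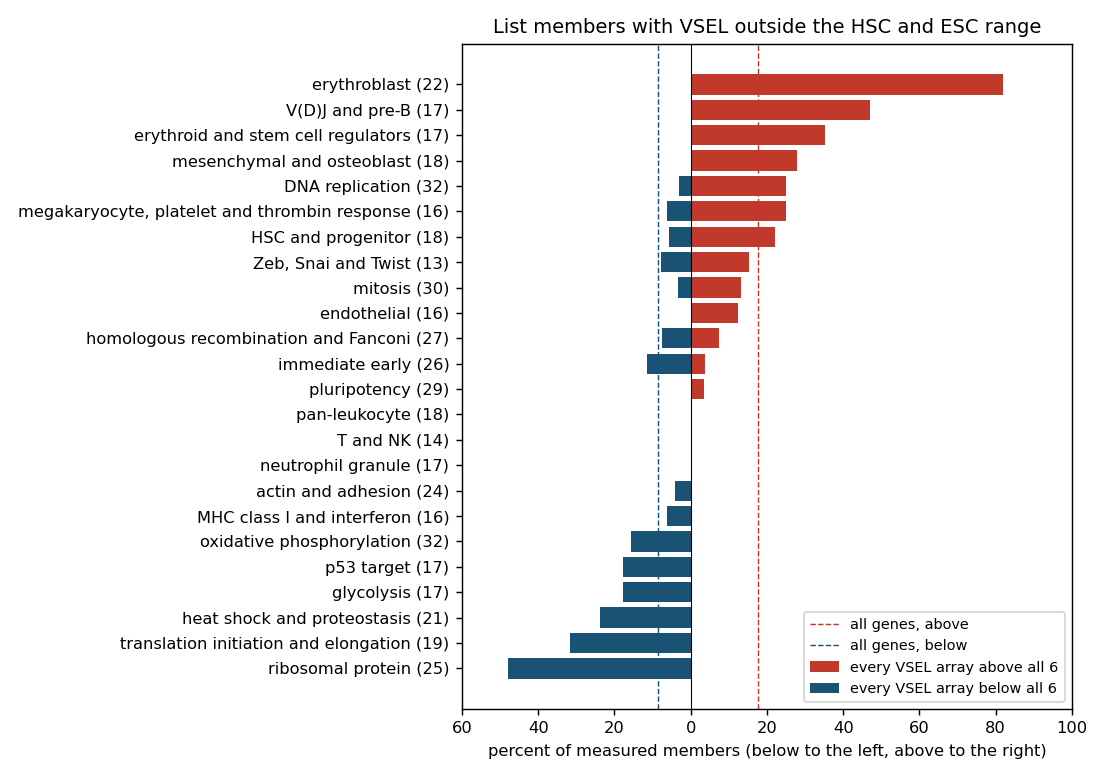
Bars give, for each of the 24 lists (measured members in brackets), the percent with every VSEL array above (red, right) or below (blue, left) all 6 HSC and ESC arrays, and dashed lines give the same for all genes (17.7% and 8.5%). The erythroblast list reaches 81.8% above and the ribosomal protein list has 12 of 25 below.

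The largest gap below was that of F2r, the thrombin receptor PAR1. It read 7.0, 6.96 and 6.69 on VSEL arrays, 10.32, 11.52 and 11.16 on HSC arrays, and 10.71, 9.84 and 9.89 on ESC arrays, a difference of -3.66 ± 0.38 (adjusted p = 0.00337). A second F2r probe set, which the choice did not use, read 6.11, 6.47 and 6.09 in VSEL and at least 8.45 on every reference array, with a gap of -1.99 to the nearest of them. F2r was lower on both probe sets in all 3 VSEL arrays, with no overlap. Both are of the kind that can match several transcripts, so F2r had no value when these were left out. Of the 16 measured genes of the megakaryocyte, platelet and thrombin list, F2r, Plek and Itgb3 were called lower (18.8%, against 9.38% of all genes). Gp1bb was called higher (0.65, adjusted p = 0.0259, with VSEL at most 6.24), a share of 6.25%, under the 8.06% of all genes. Gp1bb lost its call without VSEL 1, VSEL 3, HSC 3 or any ESC array (0.48 to 0.67, adjusted p 0.052 to 0.0835). Pf4, a platelet chemokine, and Itga2b, the platelet integrin alpha IIb, were inside the range and not called.

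Vps28, a subunit of the ESCRT-I complex that sorts membrane cargo, had the smallest adjusted p of the 12 genes with the largest gaps below (0.000264). It read 9.11, 9.60 and 9.33 in VSEL, 13.27, 13.11 and 13.13 in HSC, and 12.24, 12.12 and 12.17 in ESC, a difference of -3.39 ± 0.14. VSEL was bright yet well below both. Ctsc, the protease that activates granule serine proteases, read 6.47, 6.53 and 6.03 in VSEL, 10.62, 9.05 and 9.57 in HSC, and 9.43, 9.57 and 9.53 in ESC (-3.25 ± 0.38, adjusted p = 0.00495). Selenos, a selenoprotein of the endoplasmic reticulum that helps remove misfolded proteins, read 7.46, 7.45 and 7.10 in VSEL and at least 9.93 elsewhere, and its other 2 probe sets also had VSEL below, at gaps of -2.17 and -1.5. Zfp110 had VSEL below by all 3 of its probe sets.

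Mapk14, the stress kinase p38 alpha, read 7.67, 7.42 and 7.22 in VSEL, 11.84, 11.27 and 11.22 in HSC, and 10.18, 10.50 and 10.39 in ESC (-3.40 ± 0.22, adjusted p = 0.000886). Its 5 dimmer probe sets did not follow: 4 had VSEL inside the range and 1 had VSEL above by 0.34. Hint2, a mitochondrial nucleotide-binding protein, read 6.82, 6.77 and 6.86 in VSEL and 9.27 to 9.78 elsewhere (-2.66 ± 0.19, adjusted p = 0.00118). Kif1c, a kinesin motor, Zcchc7, an RNA-binding protein of nuclear RNA decay, Rcbtb2 and Atad2b differed by -3.26, -3.00, -3.67 and -3.41. The dimmer probe sets of these 4 genes had VSEL inside the range or above it by less than 0.1. Rcbtb2 was not called with the mean of its probe sets (-0.91, adjusted p = 0.0864) or without those that can match several transcripts (-1.06, adjusted p = 0.55). Differences of the 12 genes ran from -3.78 to -2.66, a narrower span than above.

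Pmaip1, which encodes the p53-induced death protein Noxa, had the largest difference of these 12 genes. It read 4.40, 4.56 and 4.16 in VSEL, 8.30, 7.61 and 8.98 in HSC, and 9.54, 7.48 and 7.08 in ESC (-3.78 ± 0.69, adjusted p = 0.018). VSEL was at background in all 3 arrays. Cdkn1a, the cell cycle inhibitor p21 and a main p53 target, read 7.83, 8.32 and 8.17 in VSEL, 9.81, 10.45 and 9.88 in HSC, and 10.36, 10.29 and 9.65 in ESC (-2.03 ± 0.28, adjusted p = 0.00799). Of 17 measured p53 target genes, 5 were called lower (29.4%, against 9.38% of all genes) and 0 higher. Below the range were 3 (17.6%, against 8.5% of all genes), and the median difference was -0.81. The list's median level was 7.79 in VSEL, 7.81 in HSC and 8.70 in ESC. By library it was 7.10 in VSEL 1 and 8.25 in VSEL 2+3, on either side of the HSC arrays at 7.61 to 8.09. Both were under the ESC arrays at 8.62 to 9.52. Mdm2 and Zmat3 were inside the range and not called. The count called lower was 2 without VSEL 1, and 3 without HSC 1 or without any 1 ESC array, and Pmaip1 was not called without VSEL 1 (-3.81, adjusted p = 0.0581).

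Some genes of translation were also below the range. Of 19 measured initiation and elongation factors, 6 were below (31.6%, against 8.5% of all genes), 3 of them clearly. Called lower were 6 (31.6%, against 9.38% of all genes) and higher 0, and the median difference was -0.42. Eif4a2, an RNA helicase of the cap-binding complex, read 10.06, 10.31 and 9.90 in VSEL, 12.45, 12.80 and 12.84 in HSC, and 12.57, 12.68 and 12.36 in ESC (-2.53 ± 0.16, adjusted p = 0.000886). HSC and ESC were alike for Eif4a2 and VSEL was apart from both. Eif3e, a subunit of the ribosome-recruiting eIF3 complex, read 11.12, 11.39 and 11.14 in VSEL, 12.80, 12.55 and 12.68 in HSC, and 13.25, 13.26 and 13.13 in ESC (-1.75 ± 0.13, adjusted p = 0.00121). Other bright probe sets of Eif3e also had VSEL below, at gaps of -1.09 and -1.03. It was not called when probe sets that can match several transcripts were left out (-0.097). The Eif3e probe set then read was at most 4.57 on all arrays, near background. Eef2, the translocation factor, was called lower by 0.83. Eif4e, the cap-binding protein, differed by -1.96. Eef1a1, Pabpc1 and Eif4a1 were not called. Without VSEL 1, 10 members were below.

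Ribosomal protein genes lay below in small steps: 12 of 25 were below the range (48%, against 8.5% of all genes), 0 clearly. Called lower were 4 (16%, against 9.38% of all genes) and higher 0, and the median difference was -0.15. The share called lower was not above that of the genes above the median level, 1566 of 9096. Rpl37 read 10.55, 11.39 and 11.19 in VSEL, 12.37, 12.05 and 11.90 in HSC, and 12.30, 12.48 and 12.25 in ESC (-1.30 ± 0.23, adjusted p = 0.0173). Rpl6 read 13.19, 13.39 and 13.44 in VSEL, 13.83, 13.83 and 13.88 in HSC, and 14.13, 14.08 and 13.96 in ESC, a difference of -0.65 with little spread in any group that was not called without VSEL 1 (-0.54, adjusted p = 0.0705). The list's direction depends on the scaling: after quantile normalization 6 members were below, and with arrays centred on these very genes 4 were below and 10 above.

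Of 17 glycolysis genes and glucose transporters 9 were called lower (52.9%, against 9.38% of all genes) and 0 higher. Below the range were 3 (17.6%, against 8.5% of all genes), and the median difference was -1.11. The share below was near that of the genes above the median level, 1466 of 9096. The list's median level was 10.31 in VSEL, 10.27 in HSC and 12.30 in ESC, so VSEL was level with HSC and lower than ESC. Tpi1, triosephosphate isomerase, read 10.04, 10.50 and 10.29 in VSEL, 10.93, 10.82 and 11.23 in HSC, and 12.87, 12.63 and 12.79 in ESC (-1.66 ± 0.17, adjusted p = 0.00358). The VSEL values were close under HSC and far under ESC. Pfkp, the platelet form of phosphofructokinase, was called lower by 2.21 (without VSEL 1 by 2.01, adjusted p = 0.0544) and Eno3, an enolase, by 2.35. The count called lower was 5 without VSEL 1, ESC 1 or ESC 2, and 2 after cyclic loess. Of 32 oxidative phosphorylation genes 4 were called lower (12.5%, near the 9.38% of all genes) and 0 higher. Below were 5 (15.6%, against 8.5% of all genes), 3 of them clearly, and the median difference was -0.50. This is a list of bright genes, with a median level of 11.89 in HSC and 12.63 in ESC. Of the 9096 genes above the median level 1466 were below and 1566 called lower, and the list's shares were not above these. Ndufb3, a complex I subunit, read 7.58, 8.02 and 7.63 in VSEL and at least 9.48 elsewhere (-2.15 ± 0.27, adjusted p = 0.00642). Uqcrb of complex III and Sdhb of complex II were clearly below too, by 1.14 and 1.12 at the nearest arrays. Cox4i1, Atp5b and Cycs were not called. Without VSEL 1, 7 genes were called lower and 13 were below, while Uqcrb was not called (-2.10, adjusted p = 0.0576).

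Of 26 immediate early genes 8 were called lower (30.8%, against 9.38% of all genes) and 4 higher (15.4%, against 8.06%). Below the range were 3 (11.5%, against 8.5%) and above it 1 (3.85%, under 17.7%), with a median difference of -0.54. The list's median level was 8.88 in VSEL, 12 in HSC and 7.91 in ESC. By library it was 9.85 in VSEL 1, between the HSC and ESC arrays. In VSEL 2+3 it was 8.29, within the 7.43 to 8.36 of the ESC arrays. Egr1, a zinc finger factor induced by growth signals, read 7.63, 8.24 and 7.83 in VSEL, 12.11, 13.89 and 13.82 in HSC, and 10.20, 10.65 and 9.93 in ESC (-3.94 ± 0.51, adjusted p = 0.00679). Fos, a subunit of AP-1, read 7.71, 7.02 and 7.05 in VSEL, 14.01, 14.47 and 14.20 in HSC, and 8.98, 8.60 and 9.65 in ESC (-4.28 ± 0.32, adjusted p = 0.00135). The distance from HSC was larger than that from ESC for both, and in Fosb, which was inside the range, VSEL stood at the ESC level (3.51 to 3.79 against 3.10 to 4.21, with HSC 12.81 to 13.53). Nr4a2 was called higher by 0.76 but turned to -0.47 with the mean of all its probe sets, and lost its call without VSEL 1, VSEL 3, HSC 1, HSC 3 or any ESC array (0.52 to 0.79, adjusted p 0.0546 to 0.116). The count called lower was 5 without any 1 HSC array or without ESC 2, and 0 with HSC and ESC as 1 group.

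Of 21 heat shock and proteostasis genes 6 were called lower (28.6%, against 9.38% of all genes) and 0 higher. Below were 5 (23.8%, against 8.5% of all genes) and 1 clearly, with a median difference of -0.37. Hsph1, a large heat shock protein, read 8.98, 9.14 and 8.43 in VSEL, 10.73, 10.33 and 11.68 in HSC, and 11.89, 11.46 and 11.54 in ESC (-2.39 ± 0.35, adjusted p = 0.00994). Dnaja1, a co-chaperone, was called lower by 1.18, Atf4, the factor of the amino acid response, by 1.19, and Hspa5, the chaperone BiP, by 2.00. Other Dnaja1 probe sets split the VSEL libraries. The brighter read 10.98, 7.56 and 7.08 in VSEL against 9.26 to 10.90 elsewhere. The dimmer read 9.84, 5.10 and 4.44 against 7.48 to 9.32. With the mean of its probe sets Dnaja1 was not called (-1.04, adjusted p = 0.342). Without VSEL 1, 8 members were below, and Dnaja1 (-1.16), Atf4 (-0.87) and Hspa5 (-1.18) were not called (adjusted p 0.0552 to 0.0989). Hspa5 also lost its call without HSC 2, HSC 3 or any ESC array. Of 16 MHC class I and interferon genes 4 were called higher and 4 lower (25% each, against 8.06% and 9.38% of all genes). Irf1, an interferon response factor, was below the range at 7.24 to 7.92 against 8.29 to 8.49 in ESC and 12.49 to 12.76 in HSC. Of 24 actin and adhesion genes 1 was called lower (4.17%, under the 9.38% of all genes) and 0 higher. This was Itgb1, the integrin beta 1 chain (-1.51, adjusted p = 0.0311), with 7.20, 7.13 and 6.93 in VSEL against 8.0 to 9.22 elsewhere. Its call was lost without VSEL 1 (-1.60, adjusted p = 0.0788), HSC 3 (-1.53, adjusted p = 0.0571) or ESC 3 (-1.57, adjusted p = 0.0541). The difference was also smaller and not called after quantile normalization (-0.74, adjusted p = 0.249) and cyclic loess (-0.63, adjusted p = 0.347).

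The named genes depended on the choice of probe set and on scaling. With the mean of all probe sets 17 of the 87 lost their call and 1 turned direction, and the difference of 29 moved by over 1.5 times. Among these were Zeb2 (1.91), Tspan33 (2.63), Igll1 (3.38), Cdc45 (1.44), Kif1c (-0.72), Zcchc7 (-0.82), Atad2b (-1.56), Kit (-1.12) and Cdkn1a (-1.27), which were still called. Ctsc (-1.27, adjusted p = 0.0518), Mapk14 (-0.42, adjusted p = 0.0783) and Hoxa9 (0.31, adjusted p = 0.512) were not. Without probe sets that can match several transcripts 17 named genes had no value and 8 lost their call, among them Tspan33 (1.25, adjusted p = 0.0909) and Ptprc (-0.01, adjusted p = 0.992). The Ptprc probe set left in this setting was dim on all arrays (3.27 to 5.54) and did not separate HSC from the rest. It therefore cannot show whether the first Ptprc probe set is right. Quantile normalization ended 9 calls and cyclic loess 17, among them Kit (-1.59, adjusted p = 0.0675, and -1.28, adjusted p = 0.124). After cyclic loess Eno3 was at -1.62 (adjusted p = 0.0834) and Pfkp at -1.51 (adjusted p = 0.056). Probe sets that the choice of genes did not use were also counted. The 142 genes clearly above had 133 other probe sets, of which 54 (40.6%) were also above the range, 1 below and 78 inside, against 16.1% above among all 16752 other probe sets. The 468 genes clearly below had 612 others, of which 129 (21.1%) were below, 72 above and 411 inside, against 5.21% below overall. These probe sets are from the same arrays and can share target sequence with the first.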

How the data were processed

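Values deposited by the authors are log2 levels, 1 for each probe set and array. The submitters' processing notes name RMA and Partek 6.5. Background correction, quantile normalization and probe summary are the steps of RMA. Its settings are not given here. Of 45101 probe sets, 64 controls were left out of the tests, and 34945 had 1 gene in the platform annotation. Symbols of 34741 were updated through RefSeq gene identifiers, and 204 were kept. The probe set of highest mean stood for each of 18193 genes. VSEL arrays 2 and 3 were averaged. Tests were two-sided, by lmFit and eBayes of limma 3.58.1 under R 4.3.3 (1 fit over 3 cell types, 5 residual degrees of freedom, prior 1.37), called at an adjusted p of 0.05. No filter or further normalization was used. The procedure was also run on simulated data with independent noise and the same spread for all cell types. That run does not cover a larger spread in VSEL.

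Members and gene lists were chosen with earlier results of these data known, so neither is independent support. Named genes were the 12 called genes with the largest gap on each side, Rag1, Hemgn, Zeb2 and F2r, up to 4 called members outside the range per list (where none, up to 2 called), and the 3 largest calls each way inside the range. Alternatives covered scaling, probe set choice, low genes, array weights, variance trend, the reference as 1 group, a 3′ to 5′ covariate, a replicate block and leaving out each array. The numbers in the sample titles were not treated as pairs: over 9 pairs of groups and numbers, the correlation of deviations ran from -0.0888 to 0.155, not all above 0.1. With 3 arrays per group, and VSEL 2 and 3 nearly identical, this cannot exclude pairing.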

Additional observations from a re-analysis of the deposited data

Results flagged for a closer look

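Among 9160 probe sets with no listed gene, which entered no comparison, 18 were clearly above and 38 clearly below the range of all HSC and ESC arrays. The largest gap above was 3.79, in a probe set that read 9.96, 10.41 and 10.13 on VSEL arrays 1 to 3, 2.86, 3.52 and 6.17 on HSC arrays, and 3.21, 3.47 and 3.58 on ESC arrays. The hybridisation controls, which are added to every array, averaged 11.3 on the lowest VSEL array and at most 10.68 on the HSC and ESC arrays. Groups of 3 arrays are too small for a check of single deviating values.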

How the results depend on the processing

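The count of genes differing from the mean of HSC and ESC was 3173. It was 5199 with all 9 arrays separate, 6743 with arrays centred on ribosomal proteins, 2034 over genes above the median level, 819 with array weights, 1306 with HSC and ESC as 1 group, 685 with the 3′ to 5′ covariate and 1841 to 3500 leaving out 1 array. The fit with the replicate block, by the numbers in the sample titles, called 3789. Genes clearly above (142) became 237 after quantile normalization, 314 after cyclic loess, 3226 at any gap, 40 at a gap of 2 and 150 to 779 leaving out 1 array. Genes clearly below (468) became 204, 120, 1547, 40 and 481 to 1060 in the same order, and 267 with ribosomal centring and 243 with the mean of all probe sets. Those also called against HSC and against ESC were 119 above and 436 below. These became 206 and 179 after quantile normalization, 254 and 99 after cyclic loess, 179 and 258 with ribosomal centring, 69 and 241 with array weights, 11 and 4 with the covariate, and 87 to 384 and 358 to 700 leaving out 1 array, while the mean of all probe sets gave 230 below. At a gap of 2, genes outside in both VSEL libraries fell to 42 above (from 151) and 65 below (from 557), and the share of other probe sets below rose to 32.1%. The share of called genes higher in VSEL was 23.0% over genes above the median level, 25.3% with array weights, 29.9% with the covariate, 42.7% with the replicate block and 32.4% to 48.1% leaving out 1 array, against 46.2%. Pold1 turned to -0.62 when probe sets matching several transcripts were dropped, and Nr4a2 to -0.47 with the mean of all probe sets. Of 1801 alternative values for the 87 named genes, 1532 kept direction and call, 267 kept direction and lost the call, and 23 genes kept their call throughout. The covariate leaves fewer residual degrees of freedom and leaving out arrays fewer samples, while array weights change neither. With HSC and ESC as 1 group the differences stay the same, and the distance between HSC and ESC counts as spread. Ptprc, for example, stayed at -4.86 with an adjusted p of 0.488. For the other settings the cause was not tested. Values near background have only a bound on their true difference.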
